A study of Mus musculus with 72 samples.

Results

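The daily time course of fasted liver comprised 18 of the 72 RNA-seq libraries of a study of mouse liver and gastrocnemius muscle. Its members were the libraries labelled as liver taken after 24 h without food. Livers were collected at 6 zeitgeber times (ZT, hours after lights on), namely ZT0, ZT4, ZT8, ZT12, ZT16 and ZT20, with 3 libraries at each time. Every time point closed a fast of its own, so no mouse or fast was followed over the day. The 18 fed liver libraries, collected at the same 6 times from mice with free access to chow, formed the comparison. All mice were male C57BL/6J animals of 8 weeks kept in light and dark phases of 12 h each, and the labels named no altered allele and no drug. The labels did not say how libraries with the same or different replicate numbers were related, so all p-values measure the spread between these samples. Of 20561 genes in the deposited table, 10780 reached 1 FPKM (fragments per kilobase of transcript, scaled to sequencing depth) in at least 3 of the 36 liver libraries. Genes whose mean was 100 or more times higher in muscle than in liver were set aside, 61 in all, which left 10719 genes.

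Liver cells carry a molecular clock in which CLOCK and BMAL1 (encoded by Arntl) activate genes through E-boxes, PER and CRY proteins repress that activation, and the nuclear receptors REV-ERB and ROR repress and activate Arntl through ROR elements. Feeding sets the time of many liver genes alongside this clock, and a fast turns the liver from the synthesis of lipids and cholesterol toward fatty acid oxidation, ketone body formation and gluconeogenesis. Reads inside introns come mostly from RNA that is not yet spliced and follow transcription closely, whereas reads inside exons come mostly from mature mRNA and also depend on its lifetime. The tables of exonic and intronic signal, made by the authors for exon-intron split analysis (EISA), were therefore read side by side with the whole-gene table.

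The depth of the fasted libraries, estimated from the smallest steps between their values, was 26.0 to 35.1 M reads (M, mega; median 29.8), against 22 to 33.3 M reads in the fed libraries. The summed level of the hepatocyte marker list was 67496 to 93546 FPKM in the fasted libraries, against 74833 to 101133 FPKM in the fed libraries. The 3 fasted libraries of ZT12 differed from each other more than those of any other fasted time, with a median gene SD of 0.292 on the log2 scale, against 0.119 to 0.165 at the other 5 times. The 3 fasted libraries of ZT4 held traces of muscle RNA. Their level of skeletal actin (Acta1) was 126, 25.6 and 0.862 FPKM, while none of the other 15 fasted libraries exceeded 0.139 FPKM. The summed skeletal muscle marker list was 9.95 to 483 FPKM at ZT4, against 2.08 to 3.39 FPKM in the other 15 fasted libraries, and all 17 of its members that reached the level filter were among the genes set aside. Where a list's count moved by over 1.5 times or a named rhythm changed its call without these libraries, that value is given beside it.

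A gene was called rhythmic when a 24-h cosine fitted to log2(FPKM + 0.5) passed limma's moderated F test at a Benjamini-Hochberg adjusted p under 0.05, adjusted over all genes tested. The amplitude is the distance from the fitted mean to the fitted peak in log2 units, and errors of amplitudes and peak times are standard errors. In fasted liver 3321 of 10719 genes (31%) were rhythmic, and in fed liver 4243 (39.6%). The difference between the fasted and the fed cosine was tested directly and passed for 3452 genes (32.2%). Rhythms were called in both states for 1384 genes (12.9%), which is 41.7% of the fasted and 32.6% of the fed calls, and in 731 of these the difference did not pass. A rhythm was counted as gained without food when the fasted rhythm and the difference passed and the fed unadjusted p was over 0.05. This held for 829 genes (7.73%), and the reverse, a rhythm lost without food, held for 1300 genes (12.1%). Another 1108 fasted rhythms were neither shared nor gained under these rules. The fitted fold from trough to peak was 2 or more in 375 fasted and 806 fed rhythms. The number of fasted rhythms was 2557 without the ZT4 libraries and 4182 without the ZT12 libraries.

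Rhythmic genes peaked at other hours in fasted than in fed liver. When peak times were put into 4-h windows centred on ZT0, ZT4, ZT8, ZT12, ZT16 and ZT20, the fasted rhythms numbered 429, 727, 747, 630, 381 and 407. Their shares of all genes were 4%, 6.78%, 6.97%, 5.88%, 3.55% and 3.8%. The fed rhythms numbered 1017, 755, 487, 1546, 199 and 239 in the same windows. Fasted peaks were thus most frequent around ZT4 and ZT8, in the light phase, and fed peaks around ZT12 and ZT0, where the light changes. Of the 1300 lost rhythms 814 had peaked around ZT12 in fed liver, and of the 829 gained rhythms 296 peaked around ZT12 in fasted liver. Without the ZT12 libraries the ZT0 window held 853 fasted rhythms instead of 429, and without the ZT4 libraries the ZT16 and ZT20 windows held 236 and 259. Among the 1384 genes rhythmic in both states the peaks of 495 lay within 2 h of each other and those of 312 lay more than 6 h apart, and the median shift of the fasted peak was 0.745 h.

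**Figure D1:**
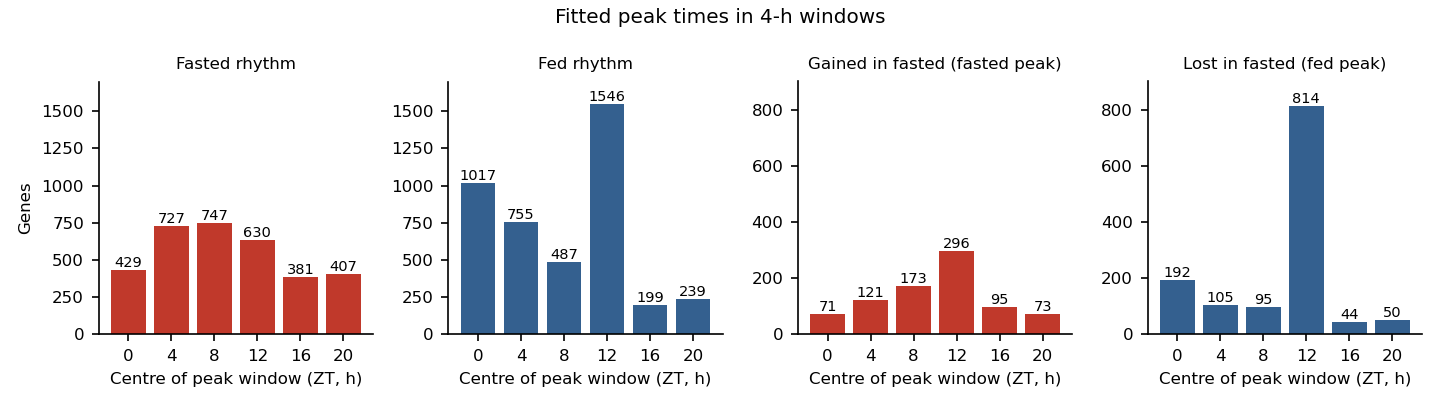
Number of genes per 4-h window of fitted peak time (horizontal axis, ZT in hours) for rhythms called in fasted liver, in fed liver, gained without food and lost without food (lost rhythms by their fed peak). The fasted bars are highest at ZT4 and ZT8 (727 and 747 genes), the fed bars at ZT12 and ZT0 (1546 and 1017 genes), and 296 of 829 gained rhythms fall at ZT12.

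Most core clock genes stayed rhythmic without food, with smaller amplitudes. Of 22 core clock genes tested, 14 were rhythmic in fasted and 19 in fed liver, and 13 in both, against the 31% of all genes that were rhythmic in fasted liver. All 13 had a smaller fitted amplitude in fasted than in fed liver, and the difference between the cosines passed for 11 of the 22 genes. The promoters of 3 rhythmic members are printed to show the elements through which the loop is known to act. The sequences are RefSeq windows of GRCm38.p6, 250 bases before to 50 bases after the annotated start, read 5′ to 3′ along the gene's strand, with the matched letters in capitals: E-boxes (CACGTG) in Ciart (chr3:95882179-95882478, - strand) 116, 58 and 44 bases before the start, D-boxes (TTATGTAA) in Per3 (chr4:151044616-151044915, - strand) 205 and 158 bases before, and a ROR element (TAGGTCA) in Arntl (chr7:113207261-113207560, + strand) 30 bases after.
Ciart: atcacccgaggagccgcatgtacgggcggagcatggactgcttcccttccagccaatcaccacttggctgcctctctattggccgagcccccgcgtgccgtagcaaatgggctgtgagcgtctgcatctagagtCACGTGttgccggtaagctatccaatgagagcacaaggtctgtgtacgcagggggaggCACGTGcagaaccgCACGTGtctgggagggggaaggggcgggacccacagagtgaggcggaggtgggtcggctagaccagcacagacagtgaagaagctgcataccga
Per3: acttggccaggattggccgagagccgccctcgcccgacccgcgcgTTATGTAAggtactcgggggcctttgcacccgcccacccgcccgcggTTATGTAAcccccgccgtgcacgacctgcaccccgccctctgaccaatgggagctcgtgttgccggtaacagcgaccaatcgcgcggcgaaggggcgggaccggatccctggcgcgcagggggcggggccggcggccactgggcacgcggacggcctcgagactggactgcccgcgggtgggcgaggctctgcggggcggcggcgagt
Arntl: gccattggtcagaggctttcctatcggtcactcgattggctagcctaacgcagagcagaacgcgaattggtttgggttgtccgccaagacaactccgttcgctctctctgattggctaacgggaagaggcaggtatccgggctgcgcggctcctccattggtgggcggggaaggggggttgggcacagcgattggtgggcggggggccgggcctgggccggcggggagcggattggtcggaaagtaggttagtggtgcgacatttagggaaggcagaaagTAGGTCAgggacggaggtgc

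Of the 10719 genes, 8193 had such a promoter window, and both strands were searched. E-boxes stood in 12.2% of these genes, D-boxes in 0.732% and ROR elements in 2.59%. Among the 17 core clock genes with a window, an E-box stood in 5 (Per1, Cry1, Tef, Bhlhe41 and Ciart), a D-box in 1 (Per3) and a ROR element in 2 (Arntl and Nfil3). Among the 2563 fasted rhythmic genes with a window, 317 (12.4%) held an E-box, close to the share of all genes. A match of letters describes these windows and is no measurement of binding.

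Gene coordinates are those of GENCODE M21 on mm10. Dbp (chr7:45705088-45710203, + strand), a PAR bZIP factor that acts on D-boxes and a classic E-box target, had the largest fasted amplitude of the 14. It had 2.00, 0.615 and 0.903 FPKM at ZT0, 2.05, 6.40 and 6.21 at ZT4, 18.4, 19.1 and 17.4 at ZT8, 13.9, 16.1 and 10.7 at ZT12, 2.45, 4.80 and 4.85 at ZT16, and 1.77, 1.78 and 1.37 at ZT20. In fed liver its means were 0.497 ± 0.104, 6.72 ± 1.38, 85.4 ± 13.2, 38.9 ± 4.52, 5.78 ± 1.66 and 1.90 ± 0.327 FPKM at the same times (SD, n = 3 each). Every fasted library of ZT8 and ZT12 lay above every other fasted library, while the fed mean at ZT8 was several times the fasted one. The amplitude was 1.81 ± 0.18 with a peak at ZT9.88 ± 0.38 h in fasted liver (adjusted p = 4.01e-08), against 3.02 ± 0.18 with a peak at ZT9.94 in fed liver, and the difference passed (adjusted p = 0.00263, limma). Tef (chr15:81802421-81826863, + strand), a relative of Dbp, likewise had a fasted amplitude of 0.77 ± 0.08 with a peak at ZT11.5, against 1.28 ± 0.08 at ZT11.8 in fed liver (adjusted p of the difference 0.00526).

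The repressors of the loop lost amplitude to different degrees. Per1 (chr11:69095217-69109960, + strand), a repressor that also responds to hormones and cyclic AMP, had 12.08, 8.78 and 7.08 FPKM at ZT0, 10.7, 8.83 and 11.7 at ZT4, 10.8, 10.1 and 9.67 at ZT8, 9.29, 11.2 and 10.4 at ZT12, 7.46, 10.04 and 10.6 at ZT16, and 9.54, 9.43 and 7.12 at ZT20. Its fed means were 0.623 ± 0.150, 0.352 ± 0.0641, 4.97 ± 1.62, 8.86 ± 1.19, 3.31 ± 1.49 and 2.16 ± 0.242 FPKM. All 18 fasted libraries lay between 7.08 and 12.1 FPKM, a range in which only the fed ZT12 mean fell, and no rhythm was called in fasted liver (amplitude 0.13 ± 0.14, adjusted p = 0.739, against 1.57 ± 0.14 and 1.36e-09 in fed liver, difference 5.27e-05). Per2 and Per3, the other repressors of that family, stayed rhythmic with amplitudes of 0.76 ± 0.12 and 1.11 ± 0.13, against 1.39 ± 0.12 and 1.88 ± 0.13 in fed liver, and peaked at ZT13.4 and ZT11.5 (adjusted p of the differences 0.0147 and 0.00458). Ciart, a repressor of CLOCK and BMAL1, had fasted means of 5.298 ± 3.68, 12.9 ± 6.97 and 3.06 ± 0.303 FPKM at ZT0, ZT8 and ZT20, against fed means of 0.1004 ± 0.0367, 7.34 ± 3.39 and 0.387 ± 0.154 FPKM. The fed libraries of ZT12 had 8.94, 13.6 and 12.7 FPKM of Ciart, near its fasted mean of ZT8. Its trough was thus far higher in fasted than in fed liver, and the amplitude was 0.81 ± 0.18 against 2.30 ± 0.18 (adjusted p of the difference 1.96e-04). Bhlhe41, another E-box repressor, was rhythmic in fed but not in fasted liver (amplitude 0.19 ± 0.11, adjusted p = 0.355, against 0.71 ± 0.11, adjusted p = 2.64e-05).

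Cry1 (chr10:85131700-85185064, - strand), the repressor that closes the loop late in the night, had close fitted amplitudes in both states. It had 8.83, 6.59 and 8.82 FPKM at ZT0, 3.64, 3.06 and 2.66 at ZT4, 4.25, 2.00 and 4.12 at ZT8, 6.33, 5.85 and 3.78 at ZT12, 17.8, 13.3 and 14.9 at ZT16, and 20.5, 16.2 and 13.7 at ZT20. The 6 libraries of ZT16 and ZT20 were the 6 highest, and no fasted library of ZT4 or ZT8 exceeded 4.25 FPKM. Its amplitude was 1.26 ± 0.10 with a peak at ZT18.6 in fasted liver, against 1.39 ± 0.10 at ZT19.0 in fed liver, and the difference did not pass (adjusted p = 0.516). Cry2 had a smaller fasted rhythm (amplitude 0.29 ± 0.07, adjusted p = 0.00689, and 0.116 without the ZT12 libraries).

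Arntl (chr7:113207465-113314126, + strand), which encodes the activator BMAL1, had 12.7, 11.2 and 12.4 FPKM at ZT0, 8.89, 5.74 and 4.59 at ZT4, 2.84, 1.73 and 1.61 at ZT8, 1.69, 3.00 and 2.08 at ZT12, 7.72, 7.23 and 7.57 at ZT16, and 11.0, 11.1 and 10.1 at ZT20. In fed liver its means were 12.07 ± 1.10, 6.05 ± 0.415, 0.343 ± 0.106, 0.480 ± 0.0538, 5.38 ± 0.727 and 10.4 ± 0.727 FPKM. The fasted values at ZT0 and ZT20 lay near the fed means, whereas at ZT8 and ZT12 every fasted library, from 1.61 FPKM up, lay above the fed means. The fasted amplitude was 1.27 ± 0.14 with a peak at ZT21.8, against 2.13 ± 0.14 at ZT22.1 in fed liver (adjusted p of the difference 0.00357). Npas2, a partner of BMAL1 that can replace CLOCK, had an amplitude of 1.02 ± 0.12 at ZT23.7, against 1.38 ± 0.12 at ZT23.7 (difference 0.202). Clock itself, the only core clock gene called in fasted but not in fed liver, passed narrowly (adjusted p = 0.0292), and did not pass without the ZT12 libraries (0.118) or without replicate 2 or replicate 5 of ZT12 (0.0552 and 0.0589).

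The REV-ERB receptors, which repress Arntl, also had smaller amplitudes in fasted than in fed liver. Nr1d1 (chr11:98767932-98775333, - strand), which encodes the repressor REV-ERBα, had 8.90, 4.64 and 4.23 FPKM at ZT0, 32.7, 24.5 and 25.6 at ZT4, 33.1, 16.0 and 7.75 at ZT8, 4.78, 11.6 and 21.2 at ZT12, 2.77, 2.86 and 4.60 at ZT16, and 1.90, 2.23 and 2.02 at ZT20. The 3 libraries of ZT8 and of ZT12 spread widely, and those of ZT20 were all lower than every library of ZT0 to ZT16. Its amplitude was 1.63 ± 0.18 with a peak at ZT6.62 in fasted liver, against 2.59 ± 0.18 at ZT7.18 in fed liver (adjusted p of the difference 0.0100). Nr1d2, its paralog, had an amplitude of 0.59 ± 0.16 against 2.01 ± 0.16 (difference 2.14e-04), and its fasted rhythm did not pass without the ZT12 libraries (adjusted p = 0.0863). Nfil3, a repressor acting on D-boxes, had an amplitude of 0.90 ± 0.12 against 1.14 ± 0.12 (adjusted p of the difference 0.133, and 0.0357 without fasted ZT4 replicate 1). Bhlhe40, Csnk1e, Csnk1d, Hlf and Rora, which encodes an activating receptor of the elements that REV-ERBα binds, were among the members with no called fasted rhythm. Of these, Rora passed in a fit of the 18 fasted libraries alone (adjusted p = 0.00232) and without ZT12 replicate 4 (0.0469), fed ZT0 replicate 5 (0.035) or fed ZT20 replicate 1 (0.0422). It also passed with 12-h terms added (0.0162), the length trend removed (0.0416), a pseudocount of 1 (0.0488) or median-of-ratios scaling (0.0498). Hlf passed without the ZT12 libraries (0.0452) and Csnk1d without ZT8 replicate 1 (0.0271).

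**Figure D2:**
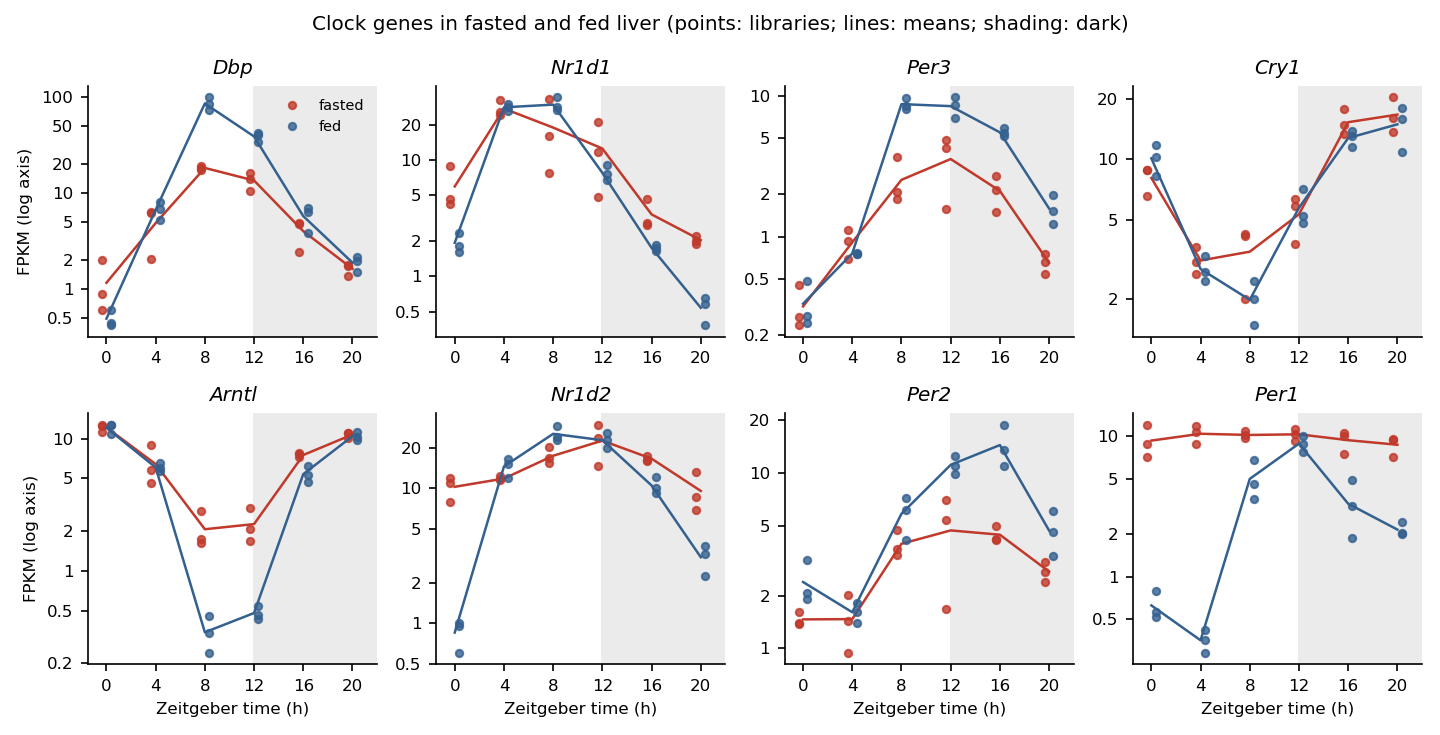
FPKM (log axis) of 8 clock genes against zeitgeber time in hours, with points for single libraries, lines for the mean of 3 libraries, fasted and fed liver in separate colours and the dark phase shaded. The Dbp, Nr1d1, Nr1d2, Per3 and Arntl lines swing less in fasted than in fed liver, the Cry1 lines are close in shape, and Per1 stays between 7.08 and 12.1 FPKM in all 18 fasted libraries.

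Every clock output gene that was rhythmic in fasted liver was rhythmic in fed liver as well. Of 34 clock output genes tested, 18 were rhythmic in fasted and 32 in fed liver, with 6 losses and no gain, and 15 of the 18 shared rhythms had a smaller amplitude in fasted liver. The shares over all genes were 31% fasted, 39.6% fed, 12.1% lost and 7.73% gained. With 32 of the 34 rhythmic in fed liver, few members could show a gain or a fasted rhythm alone. Noct (chr3:51224447-51251644, + strand), which encodes the nocturnin phosphatase, had an amplitude of 1.33 ± 0.24 with a peak at ZT13.7 in fasted liver, against 1.72 ± 0.24 at ZT12.6 in fed liver, a difference that did not pass (adjusted p = 0.345). Usp2, a ubiquitin protease, peaked at ZT12.6 with an amplitude of 1.08 ± 0.18 against 1.95 ± 0.18 (difference 0.0224), and Coq10b, needed for coenzyme Q function, at ZT12.8 with 1.05 ± 0.13 against 1.30 ± 0.13 (difference 0.0755). Elovl3 (chr19:46131897-46135694, + strand), an elongase of very long fatty acids, had 168, 95.5 and 164 FPKM at ZT0, 54.2, 66.3 and 57.5 at ZT4, 28.9, 38.7 and 37.9 at ZT8, 33.1, 7.96 and 10.4 at ZT12, 345, 84.3 and 122 at ZT16, and 211, 98.9 and 164 at ZT20. One ZT16 library stood far above the other libraries of that time, and the lowest values were those of 2 ZT12 libraries. The fasted peak at ZT21.4 ± 0.52 h came before the fed one at ZT23.4, with amplitudes of 1.57 ± 0.21 and 2.18 ± 0.21 (adjusted p of the difference 0.0135). Tars, which encodes threonyl-tRNA synthetase, had an amplitude of 0.62 ± 0.06 against 0.59 ± 0.06 in fed liver (difference 0.201). Nampt (chr12:32819545-32853349, + strand), the rate-limiting enzyme of the NAD salvage pathway, lost its rhythm: its amplitude was 0.26 ± 0.11 in fasted liver (adjusted p = 0.131), against 1.17 ± 0.11 in fed liver, and the difference passed (adjusted p = 5.17e-05). Without ZT20 replicate 5 the fasted rhythm of Nampt passed (adjusted p = 0.042).

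Genes of cholesterol synthesis and uptake peaked in the night of fasted liver. Of 28 tested, 20 were rhythmic in fasted and 12 in fed liver, 8 in both, 7 were gained and 2 lost, and the difference between the cosines passed for 18. The shares over all genes were 31% fasted, 39.6% fed, 7.73% gained and 12.1% lost, and the difference passed for 32.2%. In the window centred on ZT16 peaked 17 of the 20 fasted rhythms, against 11.5% of the fasted rhythms of all genes (3.55% of all genes tested). The 12 fed rhythms peaked in the windows of ZT0 (6), ZT4 (3), ZT8 (1) and ZT12 (2). The median amplitude over the 28 was 0.57 in fasted and 0.31 in fed liver, against 0.171 and 0.182 over all genes. Between 19 and 24 of the 28 were called in each alternative setting and without any 1 fasted library. Msmo1 (chr8:64718139-64733792, - strand), a sterol oxidase of the pathway, had 11.4, 12.0 and 10.7 FPKM at ZT0, 11.5, 11.7 and 10.3 at ZT4, 11.1, 22.7 and 14.4 at ZT8, 90.3, 18.2 and 10.6 at ZT12, 34.4, 64.4 and 79.0 at ZT16, and 23.7, 30.1 and 16.1 at ZT20. In fed liver its means were 158 ± 15.0, 189.8 ± 21.2, 223 ± 48.2, 159 ± 16.5, 118 ± 20.2 and 145 ± 10.1 FPKM. The fasted libraries of ZT0 and ZT4 were closely alike, those of ZT16 were all higher, and those of ZT12 ranged from the level of ZT0 to the highest value of the course. The fasted amplitude was 1.06 ± 0.17 with a peak at ZT15.3 ± 0.60 h (adjusted p = 7.16e-05), against 0.37 ± 0.17 in fed liver (adjusted p = 0.173, difference 4.58e-04).

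Cyp51 (chr5:4081145-4104746, - strand), the lanosterol demethylase, had fasted means of 6.40 ± 0.743, 5.81 ± 0.560, 4.41 ± 0.682, 8.78 ± 5.99, 20.0 ± 5.63 and 12.4 ± 3.29 FPKM from ZT0 to ZT20 (SD, n = 3 each). It peaked at ZT17.4 with an amplitude of 0.89 ± 0.11, against 0.30 ± 0.11 in fed liver (adjusted p of the difference 8.05e-05). Sqle, squalene epoxidase, peaked at ZT15.7 with an amplitude of 0.98 ± 0.19 against 0.11 ± 0.19 (difference 0.0115), and Srebf2, the transcription factor that drives the pathway, at ZT17.6 with 0.44 ± 0.07, against a fed peak at ZT0.988 with 0.33 ± 0.07 (difference 1.74e-04). Insig2 (chr1:121304353-121332589, - strand), which holds the SREBP precursors back in the endoplasmic reticulum, peaked later, at ZT22.8, with an amplitude of 1.12 ± 0.14 against 1.31 ± 0.14 at ZT23.8 in fed liver (difference 0.301). Its levels were 1123, 793 and 613 FPKM at ZT0, 543, 229 and 315 at ZT4, 290.4, 202 and 162 at ZT8, 94.1, 119 and 309.5 at ZT12, 370.4, 322 and 236 at ZT16, and 459, 642 and 542 at ZT20. At every time each fasted library exceeded the fed mean, and the fed means ran from 22.2 ± 3.33 FPKM at ZT12 to 118 ± 15.9 FPKM at ZT4. The highest Insig2 levels thus fell at ZT0, when Msmo1 and Cyp51 were low. Stard4, a sterol carrier, had the largest amplitude among the members that did not pass (adjusted p = 0.0594) and passed with a pseudocount of 1 (0.0488), other scalings (0.0404 to 0.0434) or 12-h terms added (0.0233). It also passed without the ZT4 libraries (0.039), without the ZT12 libraries (0.000211), without ZT4 replicate 3 or 4 (0.0378 and 0.0381) and without ZT12 replicate 5 (8.97e-05). The promoter of Hmgcs1 (chr13:119690101-119690400, + strand), which encodes the synthase that makes HMG-CoA for this pathway, is printed because it held the sterol element searched for (TCACCCCAC, in capitals, 137 bases before the start). It was the only 1 of 20 list members with a window to hold it, beside 0.806% of all genes.
Hmgcs1: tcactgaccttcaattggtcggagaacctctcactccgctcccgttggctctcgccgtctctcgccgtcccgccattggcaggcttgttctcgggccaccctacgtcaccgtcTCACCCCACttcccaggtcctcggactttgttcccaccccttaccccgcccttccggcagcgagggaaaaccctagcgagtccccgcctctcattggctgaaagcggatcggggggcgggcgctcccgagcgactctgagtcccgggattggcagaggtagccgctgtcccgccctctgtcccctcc

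Hmgcs1, named for this promoter, peaked at ZT17.1 in fasted liver with an amplitude of 0.58 ± 0.14, against ZT3.73 and 0.67 ± 0.14 in fed liver, and the difference passed (adjusted p = 3.35e-04).

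Most chaperones of the endoplasmic reticulum that were rhythmic in fasted liver peaked around ZT8. Of 27 tested, 15 were rhythmic in fasted and 6 in fed liver, 3 in both, 8 were gained and none was lost. Over all genes 31% were rhythmic in fasted and 39.6% in fed liver, with 7.73% gained and 12.1% lost. In fasted liver 11 of the 15 peaked in the window of ZT8, 2 in that of ZT4 and 2 in that of ZT12. The ZT8 window held 22.5% of the fasted rhythms of all genes (6.97% of all genes tested). The 6 fed rhythms peaked in the windows of ZT0 (3) and ZT12 (3). The count of fasted rhythms was 12 without the ZT4 libraries, 20 without the ZT12 libraries and 12 to 19 without any 1 fasted library. Calr (chr8:84841850-84846934, - strand), which encodes the chaperone calreticulin, had 79.1, 121 and 159 FPKM at ZT0, 252, 349 and 419 at ZT4, 511, 422 and 486 at ZT8, 351, 363 and 225 at ZT12, 323, 188 and 219 at ZT16, and 218, 144 and 264 at ZT20. Its fed means were 512 ± 106, 499.9 ± 45.9, 359 ± 43.0, 271 ± 14.2, 365 ± 85.7 and 459 ± 18.7 FPKM. All fasted libraries of ZT8 lay above all others, those of ZT0 below nearly all others, while in fed liver ZT0 had the highest mean. The peaks were at ZT9.35 ± 0.61 h in fasted and ZT0.299 in fed liver, with amplitudes of 0.77 ± 0.12 and 0.44 ± 0.12 (adjusted p of the difference 1.78e-04).

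Sec61b (chr4:47474658-47483242, + strand), a subunit of the channel through which proteins enter the endoplasmic reticulum, had 11.4, 17.1 and 18.2 FPKM at ZT0, 26.9, 31.2 and 31.3 at ZT4, 39.6, 39.2 and 39.5 at ZT8, 37.0, 26.0 and 35.3 at ZT12, 34.6, 19.7 and 24.8 at ZT16, and 25.8, 17.4 and 22.3 at ZT20. Its fed means were 101 ± 14.5 FPKM at ZT0, 83.8 ± 6.28 at ZT8 and 99.7 ± 11.2 at ZT16. The fasted values were lower than the fed means at every time, the ZT8 libraries lay above all other fasted libraries and those of ZT0 were among the lowest, and the fasted amplitude was 0.56 ± 0.08 with a peak at ZT9.76, against 0.20 ± 0.08 in fed liver (adjusted p of the difference 2.14e-04). Dnajb11, a co-chaperone of BiP, and P4hb, protein disulfide isomerase, peaked at ZT8.45 and ZT10.9 with amplitudes of 0.60 ± 0.10 and 0.41 ± 0.07, against 0.20 ± 0.10 and 0.15 ± 0.07 in fed liver (differences 0.00127 and 6.65e-04). Creld2, a secreted chaperone, had the largest amplitude of those not called (adjusted p = 0.106) and passed without the ZT12 libraries (0.046) or ZT20 replicate 5 (0.0287). The endoplasmic reticulum stress element (CCAAT and CCACG separated by 9 bases) stood in 9 of 22 members with a promoter window, 4 of them among the 11 rhythmic members with one, against 0.171% of all genes. The last 4 letters of this element can be shared with an E-box. The windows of Hspa5 (chr2:34771840-34772139, + strand), with the element 65 bases before the start, and of Calr (chr8:84846882-84847181, - strand), with the element on the other strand 162 bases before the start, are printed with it in capitals.
Hspa5: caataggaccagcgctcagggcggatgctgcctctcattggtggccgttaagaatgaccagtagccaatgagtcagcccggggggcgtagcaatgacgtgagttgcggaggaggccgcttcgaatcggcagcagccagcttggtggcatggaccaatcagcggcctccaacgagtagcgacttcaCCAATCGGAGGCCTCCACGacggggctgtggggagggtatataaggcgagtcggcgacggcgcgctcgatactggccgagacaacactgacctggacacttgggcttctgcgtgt
Calr: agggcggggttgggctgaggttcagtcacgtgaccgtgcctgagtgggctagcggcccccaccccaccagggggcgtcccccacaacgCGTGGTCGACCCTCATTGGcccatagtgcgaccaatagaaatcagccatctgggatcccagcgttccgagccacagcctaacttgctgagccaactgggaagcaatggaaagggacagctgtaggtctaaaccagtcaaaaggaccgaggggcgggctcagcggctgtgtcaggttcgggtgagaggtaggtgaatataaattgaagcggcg

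Hspa5, which encodes BiP, the main chaperone of this compartment, peaked at ZT7.48 with an amplitude of 0.59 ± 0.17 in fasted liver (adjusted p = 0.0222), against 0.20 ± 0.17 in fed liver (adjusted p = 0.582, difference 0.0306). Proteasome genes, which serve the removal of misfolded and other proteins, peaked at similar hours. Of 30 tested, with the regulator Nfe2l1 counted among them, 13 were rhythmic in fasted and 18 in fed liver and 7 in both, against 31%, 39.6% and 12.9% of all genes. The fasted count was 7 with the replicate number as a block and 17 under quantile normalisation. The fasted peaks lay in the windows of ZT8 (8), ZT12 (4) and ZT16 (1), the fed peaks in those of ZT0 (4), ZT4 (12) and ZT12 (2), and the difference passed for 13 genes. The β-subunit genes Psmb6, Psmb5 and Psmb3 peaked at ZT11.2, ZT9.39 and ZT8.95 with amplitudes of 0.29 ± 0.06, 0.34 ± 0.07 and 0.33 ± 0.07, so their trough-to-peak folds were 1.502, 1.61 and 1.57. Nfe2l1 (chr11:96817414-96829968, - strand), the transcription factor known to induce proteasome genes, peaked hours later, at ZT17.4 ± 0.45 h with an amplitude of 0.48 ± 0.06, against 0.17 ± 0.06 in fed liver (difference 4.39e-04).

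**Figure D3:**
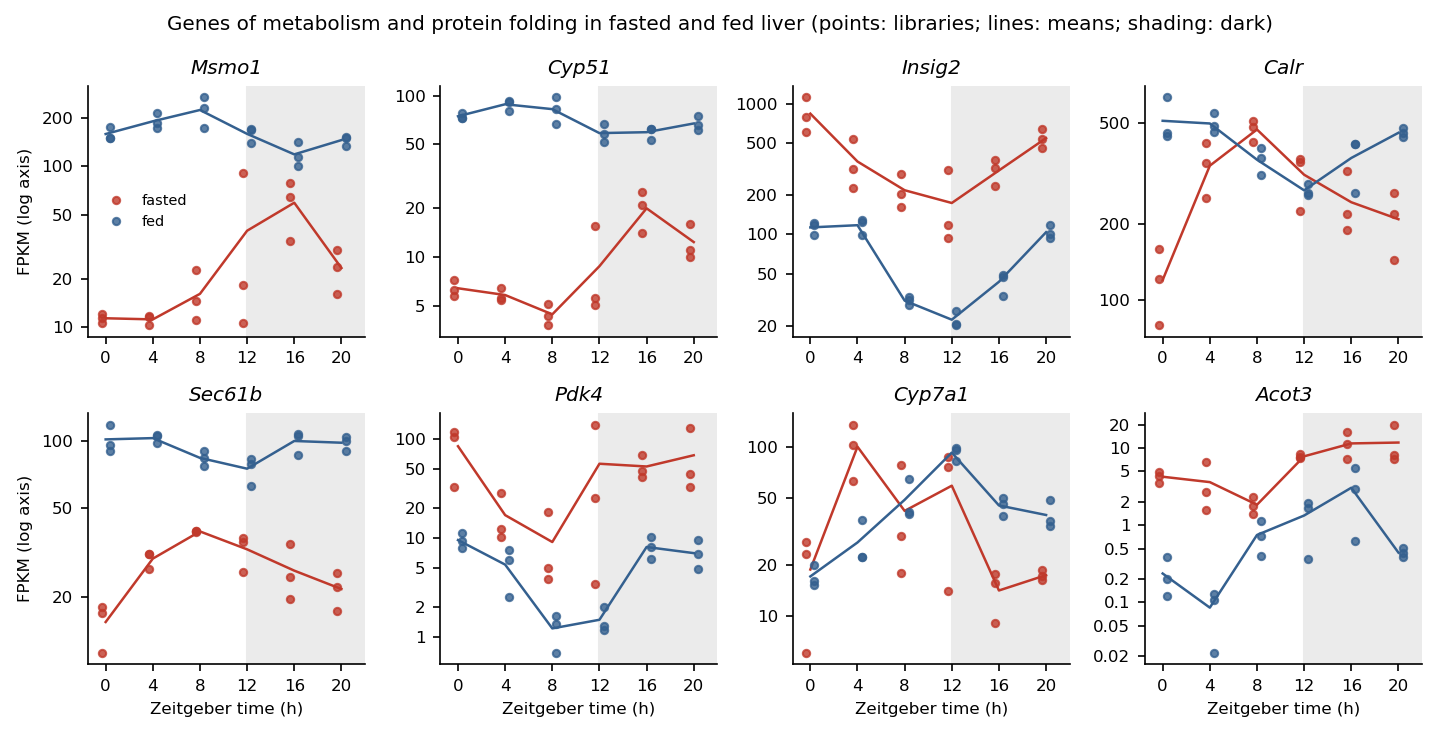
FPKM (log axis) of 8 genes of cholesterol synthesis, endoplasmic reticulum chaperones, fuel use and bile acid synthesis against zeitgeber time in hours, with points for single libraries, lines for means of 3 libraries and the dark phase shaded. In fasted liver Msmo1 and Cyp51 rise toward ZT16, Calr and Sec61b are highest at ZT8 and lowest at ZT0, and Insig2, Pdk4 and Acot3 lie above the fed means.

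Fatty acid oxidation and ketogenesis, the pathways that a fast is known to raise, were rhythmic in fasted liver at a share near that of all genes. Of 46 tested, 17 were rhythmic in fasted and 14 in fed liver, 9 in both, 5 were gained and 2 lost. Of all genes 31% were rhythmic in fasted and 39.6% in fed liver, with 7.73% gained and 12.1% lost. The fasted peaks lay in the windows of ZT20 (8), ZT0 (3), ZT12 (3), ZT16 (2) and ZT8 (1). Acsl1 (chr8:46471037-46536051, + strand), which activates long-chain fatty acids, had 619.8, 429 and 474 FPKM at ZT0, 420.2, 472 and 451 at ZT4, 341, 282 and 304 at ZT8, 294, 243 and 188 at ZT12, 651, 438 and 459.9 at ZT16, and 529.8, 503 and 749.5 at ZT20. Its fed means lay between 188 ± 7.24 FPKM at ZT8 and 269.8 ± 8.08 FPKM at ZT16. Every fasted library of ZT0, ZT16 and ZT20 exceeded every library of ZT8 and ZT12. The amplitude was 0.58 ± 0.08 with a peak at ZT21.8, against 0.25 ± 0.08 at ZT19.5 in fed liver (difference 0.0243). Pex11a, which drives the division of peroxisomes, had fasted means of 94.2 ± 19.7, 52.6 ± 4.35 and 108 ± 11.3 FPKM at ZT0, ZT12 and ZT20, against fed means of 25.6 ± 3.59, 28.6 ± 4.53 and 25.2 ± 4.39 FPKM, and its rhythm was present in fasted liver (amplitude 0.50 ± 0.07, peak at ZT20.7) but not called in fed liver (0.18 ± 0.07, adjusted p = 0.119, difference 0.00266).

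The acyl-CoA thioesterases Acot3 and Acot4, neighbours on chromosome 12, peaked at ZT17.4 and ZT18.7 in fasted liver, against ZT14.2 and ZT13.9 in fed liver, with differences that passed (adjusted p = 0.0379 and 6.06e-04). Both belong to a family of similar genes between which the authors' counting may have split reads. Acot3 had 4.32, 3.57 and 4.91 FPKM at ZT0, 1.57, 6.62 and 2.71 at ZT4, 1.39, 2.36 and 1.79 at ZT8, 7.44, 8.53 and 7.59 at ZT12, 11.3, 16.0 and 7.26 at ZT16, and 8.10, 7.27 and 20.2 at ZT20, and fed means between 0.0856 ± 0.0558 FPKM at ZT4 and 3.07 ± 2.48 FPKM at ZT16. Its ZT8 libraries were all low, and 1 of the ZT20 libraries stood far above the others of that time. Pdk4 (chr6:5483351-5496309, - strand), the kinase that spares glucose by closing pyruvate dehydrogenase, had 118, 105 and 32.8 FPKM at ZT0, 28.6, 10.3 and 12.2 at ZT4, 18.5, 4.96 and 3.81 at ZT8, 3.42, 25.7 and 140.4 at ZT12, 69.6, 41.7 and 47.8 at ZT16, and 44.6, 129 and 33.0 at ZT20. The lowest and the highest value of the course were both libraries of ZT12. Its fasted and fed amplitudes were 1.53 ± 0.32 and 1.30 ± 0.32, with peaks at ZT19.9 and ZT21.5, and the difference did not pass (adjusted p = 0.509). Fgf21, the fasting hormone, had no called rhythm (adjusted p = 0.0774), but passed in a fit of the 18 fasted libraries alone (0.00992) and without fed ZT16 replicate 2 (0.00606), with the length trend removed (0.0388) and with 12-h terms added (0.0465).

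Gluconeogenesis and amino acid catabolism were rhythmic in 17 of 38 genes in fasted and in 21 in fed liver, 9 in both, with 5 gained and 6 lost, beside the same shares of all genes. In fasted liver 14 of the 17 peaked in the windows of ZT12 (6) and ZT16 (8). Cth (chr3:157894248-157925077, - strand), the cystathionine lyase that makes cysteine, was one of the gains. It had fasted means of 297 ± 69.5, 307 ± 93.6, 430.1 ± 107, 661 ± 38.2 and 565 ± 21.8 FPKM from ZT0 to ZT16, against fed means between 149 ± 15.6 FPKM at ZT8 and 185 ± 16.9 FPKM at ZT20. The rhythm ran above the fed level throughout, with an amplitude of 0.62 ± 0.08 and a peak at ZT13.5, against 0.14 ± 0.08 in fed liver (difference 1.78e-04). Fbp1 (chr13:62864753-62888282, - strand), fructose bisphosphatase of gluconeogenesis, had 350.5, 359.9 and 393 FPKM at ZT0, 403, 684 and 489 at ZT4, 587, 711 and 699 at ZT8, 1021, 628 and 625 at ZT12, 673, 738 and 769.7 at ZT16, and 534, 536 and 589.7 at ZT20. All 3 libraries of ZT0 lay below every other fasted library. It peaked at ZT12.6 with 0.47 ± 0.07 against 0.16 ± 0.07 (difference 0.0211), and Gpt, alanine aminotransferase, at ZT12.4 with 0.41 ± 0.06 against 0.19 ± 0.06 (difference 0.128). In the urea cycle, which clears the nitrogen of amino acids, 4 of 7 genes were rhythmic in fasted liver and 3 in fed liver. Arg1, arginase, had 1757, 1690.5 and 1664 FPKM at ZT0, 1819, 1855 and 1816 at ZT4, 2273, 2237 and 2166 at ZT8, 1944, 1711 and 2312 at ZT12, 1321, 1594 and 1534 at ZT16, and 1429, 1557 and 1454 at ZT20. Its ZT16 and ZT20 libraries lay below all others, and those of ZT8 above all but 1 library of ZT12. The rhythm had an amplitude of 0.28 ± 0.06 at ZT7.63. The urea cycle count fell to 1 under quantile normalisation, and Asl, argininosuccinate lyase, did not pass without the ZT12 libraries (adjusted p = 0.195) or ZT12 replicate 5 (0.0504).

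Fatty acid and triglyceride synthesis, which a fast is known to lower, was rhythmic in 11 of 29 genes in fasted and 19 in fed liver, 9 in both, with no gain and 5 losses. The fasted share of 37.9% was near the 31% of all genes. In fed liver 39.6% of all genes were rhythmic, with 7.73% gained and 12.1% lost. Elovl5 (chr9:77917364-77984519, + strand), an elongase of polyunsaturated fatty acids, kept the timing of fed liver, with an amplitude of 0.64 ± 0.08 and a peak at ZT0.0266, against 0.72 ± 0.08 at ZT0.538 in fed liver (difference 0.636). Tkfc, a kinase of fructose breakdown, peaked at ZT8.69 instead of ZT13.8, with amplitudes of 0.90 ± 0.12 and 0.40 ± 0.12 (difference 6.68e-04). Thrsp, a lipogenic regulator, had the largest amplitude among the members that did not pass (adjusted p = 0.189), and passed without the ZT12 libraries (0.0119), without ZT12 replicate 4 (0.0424) or without ZT12 replicate 5 (0.03). Glycolysis and glycogen genes were rhythmic in 14 of 24 in fasted and 13 in fed liver, 8 in both. Ugp2, which makes UDP-glucose for glycogen, had closely similar cosines in both states (amplitude 0.60 ± 0.10 at ZT10.1, against 0.54 ± 0.10 at ZT10.1, difference 0.943). Tpi1 (chr6:124810586-124814296, - strand), triose phosphate isomerase, was a gain, with fasted means of 154 ± 16.7 FPKM at ZT0 and 271 ± 16.9 FPKM at ZT8, against 261 ± 23.5 and 238 ± 35.6 FPKM in fed liver (amplitude 0.39 ± 0.05 against 0.12 ± 0.05, difference 1.74e-04).

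Bile acid synthesis and transport was rhythmic in 8 of 23 genes in fasted and 15 in fed liver, 5 in both, with no gain and 6 losses. Over all genes 31% were rhythmic in fasted and 39.6% in fed liver, with 7.73% gained and 12.1% lost. The fasted share was near that of all genes. Cyp7a1 (chr4:6265612-6275633, - strand), which catalyses the first and limiting step of the classic bile acid pathway, had 6.09, 23.2 and 27.3 FPKM at ZT0, 103, 135 and 63.2 at ZT4, 29.9, 18.1 and 77.8 at ZT8, 76.3, 86.8 and 14.2 at ZT12, 9.13, 15.7 and 17.8 at ZT16, and 16.3, 17.4 and 18.8 at ZT20. Its fed means were 17.2 ± 2.45, 27.3 ± 8.57, 48.8 ± 13.9, 92.7 ± 8.46, 45.2 ± 5.50 and 39.7 ± 7.56 FPKM. The fasted maximum fell at ZT4, when fed levels were still low, and the libraries of ZT8 and ZT12 spread from low to high. The peaks were at ZT6.71 in fasted and ZT12.5 in fed liver, and the difference passed (adjusted p = 0.00760). Abcb4, the phospholipid exporter of the bile canaliculus, peaked at ZT22.5 in fasted and ZT6.35 in fed liver, with amplitudes of 0.37 ± 0.06 and 0.27 ± 0.06 (difference 2.24e-04), and Abcb11, the bile salt pump, at ZT21.8 and ZT1.74 (difference 0.00638).

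Small rhythms around ZT12 were called in most genes of oxidative phosphorylation, the final stage of respiration. Of 25 tested, 20 were rhythmic in fasted and 2 in fed liver, 16 were gained, and all 20 fasted peaks fell in the window of ZT12. That window held 19.0% of the fasted rhythms of all genes (5.88% of all genes tested). Fasted rhythms, fed rhythms and gains made up 31%, 39.6% and 7.73% of all genes. The amplitudes of these 20 were small, 0.13 to 0.26. Cox7b, a subunit of cytochrome oxidase, had fasted means of 106 ± 12.0, 130.4 ± 3.80, 139 ± 16.7, 171 ± 39.9, 143 ± 14.6 and 132 ± 9.73 FPKM. Its ZT12 libraries were 173, 130.0 and 209.8 FPKM, so 1 of them lay within the range of the other times, and its amplitude was 0.26 ± 0.06 (adjusted p = 0.00364, difference 0.00847). Cyc1, cytochrome c1, had an amplitude of 0.19 ± 0.04 against 0.07 ± 0.04 in fed liver (difference 0.00758), and did not pass under quantile normalisation (adjusted p = 0.155). These calls depended on the scaling and on single libraries: 3 of the 25 passed under quantile normalisation and 24 under median-of-ratios scaling, 12 without ZT12 replicate 5, 11 and 12 without ZT0 replicate 4 and replicate 1, and 16 without all ZT12 libraries. The tricarboxylic acid cycle was rhythmic in 8 of 20 genes in fasted and 7 in fed liver (13 in fasted liver without the ZT12 libraries), with Mdh2, malate dehydrogenase, at ZT11.8 (amplitude 0.28 ± 0.05) and Idh2, isocitrate dehydrogenase, at ZT13.2 (0.38 ± 0.07).

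Genes of protein synthesis were called less evenly. Over all genes 31% were rhythmic in fasted and 39.6% in fed liver, with 12.1% lost. Of 24 ribosomal protein genes 8 were rhythmic in fasted and 5 in fed liver, with peaks from ZT9.47 to ZT11.3, and the count ranged from 4 without ZT12 replicate 5 to 13 without ZT12 replicate 4, with 5 without the ZT4 libraries and 4 without the ZT12 libraries. Rpl3 had an amplitude of 0.34 ± 0.06 at ZT10.2, against 0.20 ± 0.06 at ZT23.8 in fed liver (difference 3.35e-04). Ribosome biogenesis was rhythmic in 14 of 35 genes in fed liver but in 5 in fasted liver, with 11 losses. This fasted count was 18 without the ZT12 libraries, 3 without the ZT4 libraries, 11 without ZT12 replicate 5 and 1 to 3 without ZT0 replicate 1 or 4, ZT4 replicate 1 or 3, ZT12 replicate 2 or any 1 library of ZT16. Nhp2, a protein of the ribonucleoproteins that modify ribosomal RNA, kept its call in each of these fits and peaked at ZT8.04 with an amplitude of 0.45 ± 0.08, against 0.08 ± 0.08 in fed liver.

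Genes that respond to hormones and to stress were called unevenly, beside 31% of all genes in fasted and 39.6% in fed liver. Insulin- and FOXO-responsive genes were rhythmic in 10 of 24 in either state, 6 in both. Cdkn1a, the cell cycle inhibitor p21, peaked at ZT21.7 with an amplitude of 1.25 ± 0.19, against 1.85 ± 0.19 in fed liver (difference 0.176). Irs1, an adaptor of the insulin receptor, peaked at ZT17.6 with 0.63 ± 0.09, against 0.15 ± 0.09 in fed liver (difference 0.00149), and Ccng2, an atypical cyclin under FOXO control, at ZT19.2 with 0.90 ± 0.14, against 0.66 ± 0.14 (difference 0.0155). Glucocorticoid-responsive genes were rhythmic in 2 of 19 in fasted and 7 in fed liver, and CREB-responsive and immediate early genes in 2 of 22 and 4, both below the share of all genes, and without the ZT4 libraries none of either list was called in fasted liver. The CREB-responsive count was 6 without the ZT12 libraries, 7 without ZT12 replicate 5 and 4 without ZT20 replicate 5, and the glucocorticoid-responsive count was 1 without ZT4 replicate 3, ZT8 replicate 2 or ZT20 replicate 4. Cytosolic heat shock and cold-inducible genes were rhythmic in 4 of 22 in fasted and 14 in fed liver. That fasted count was 12 without the ZT12 libraries, 11 without ZT12 replicate 5, 9 without ZT8 replicate 1 and 2 without ZT0 replicate 1. Cirbp (chr10:80165985-80172786, + strand), the cold-inducible RNA-binding protein whose level follows the daily dip of body temperature, had an amplitude of 1.01 ± 0.13 with a peak at ZT4.78 ± 0.51 h, against 0.60 ± 0.13 at ZT5.94 in fed liver (difference 0.124). Amino acid response and ATF4 targets were rhythmic in 4 of 25 in fasted and 9 in fed liver (7 in fasted liver without the ZT12 libraries).

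In drug and redox metabolism some counts were close in both states and others were not. The counts of this paragraph stand beside 31% of all genes in fasted and 39.6% in fed liver, with 7.73% gained. Xenobiotic metabolism was rhythmic in 17 of 39 genes in fasted and 16 in fed liver, 7 in both. Gsta3, a glutathione transferase, peaked at ZT16.6 with an amplitude of 0.79 ± 0.12, against 0.27 ± 0.12 in fed liver (difference 0.00786). The heme and iron list was rhythmic in 10 of 24 genes in fasted and 8 in fed liver, with 5 gains, among them the biliverdin reductases Blvra at ZT9.84 (0.41 ± 0.07 against 0.17 ± 0.07 in fed liver, difference 0.00310) and Blvrb at ZT11.4 (0.42 ± 0.08 against 0.07 ± 0.08, difference 0.00847). NRF2 antioxidant genes were rhythmic in 8 of 16 in fasted and 5 in fed liver (5 in fasted liver without ZT0 replicate 1 or ZT12 replicate 2). NAD and polyamine metabolism was rhythmic in 6 of 18 in fasted and 11 in fed liver, and Odc1, the ornithine decarboxylase that opens polyamine synthesis, peaked at ZT8.95 in fasted and ZT18.1 in fed liver (difference 3.16e-04). Autophagy and lysosome genes were rhythmic in 5 of 32 in fasted and 13 in fed liver (9 in fasted liver without the ZT12 libraries, 8 without ZT12 replicate 5 and 3 without the ZT4 libraries). Growth hormone and STAT5 targets were rhythmic in 4 of 25 and 9, acute phase proteins in 6 of 26 and 9, cell cycle genes in 5 of 16 and 7, and SRF and actin cytoskeleton genes in 5 of 15 and 4, in fasted and fed liver in that order. The cell cycle count was 3 without the ZT4 libraries or ZT16 replicate 3, and the SRF and actin count was 3 without ZT8 replicate 2, ZT16 replicate 3 or 4, or ZT20 replicate 1 or 4. Actb, cytoplasmic actin, peaked at ZT5.85 in fasted and ZT21.8 in fed liver (difference 4.52e-04).

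**Figure D4:**
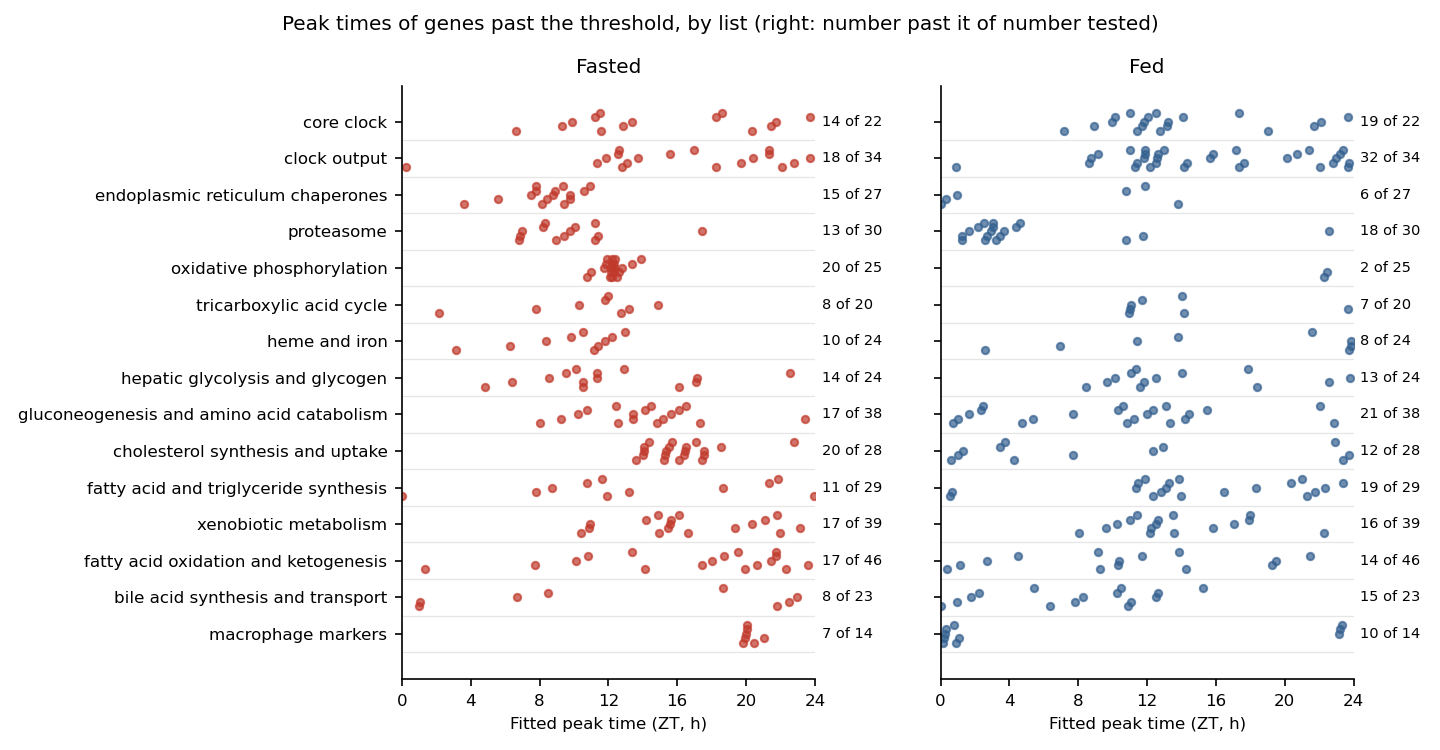
Fitted peak times (horizontal axis, ZT in hours) of the rhythmic genes of 15 lists, 1 row per list and 1 point per gene, fasted liver on the left and fed liver on the right, with the number rhythmic of the number tested. In fasted liver 17 of 20 cholesterol genes peak in the window of ZT16, 11 of 15 endoplasmic reticulum chaperones in that of ZT8 and all 20 oxidative phosphorylation genes in that of ZT12.

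Among the lists of cell markers, that of macrophages was rhythmic above the share of all genes in fasted liver, and the others were near or below it. The counts of all these lists stand beside 31% of all genes rhythmic in fasted and 39.6% in fed liver. Of 14 macrophage markers 7 were rhythmic in fasted and 10 in fed liver, 6 in both. All 7 fasted peaks lay between ZT19.8 and ZT21.0 and all 10 fed peaks in the window of ZT0, and the difference between the cosines passed for 2 genes. The Kupffer cell genes Vsig4, Timd4 and Cd163 had amplitudes of 0.49 ± 0.10, 0.44 ± 0.09 and 0.49 ± 0.10 in fasted liver, against 0.54 ± 0.10, 0.33 ± 0.09 and 0.19 ± 0.10 in fed liver. The summed macrophage list was 92.6 to 165 FPKM at ZT0, 79.2 to 126 at ZT4, 59.4 to 112 at ZT8, 80.8 to 136 at ZT12, 104 to 138 at ZT16 and 135 to 187 at ZT20 in fasted liver, and 102 to 401 FPKM over the fed libraries. In bulk liver, fewer cells of a type and less RNA per cell cannot be told apart. Endothelial markers were rhythmic in 3 of 13 in fasted and 4 in fed liver, extracellular matrix genes in 4 of 18 and 13, stellate cell and fibroblast markers in 1 of 12 and 7, cholangiocyte markers in 2 of 6 and 3, and hepatocyte markers in 3 of 15 and 5. None of the extracellular matrix genes was called without the ZT4 libraries, and without any 1 fasted library their count ranged from 1 to 5, that of endothelial markers from 1 to 5 and that of hepatocyte markers from 2 to 7. Of the cholangiocyte markers none was called without the ZT12 libraries and 1 without the ZT4 libraries. Of the few lymphocyte, neutrophil, erythroid, pancreas and adipocyte markers tested, none was rhythmic in fasted liver by limma's test. At an unadjusted p under 0.05 stood 1 lymphocyte or neutrophil marker and 2 adipocyte markers (3 lymphocyte or neutrophil markers and 1 adipocyte marker passed without the ZT12 libraries, and 1 erythroid and 1 adipocyte marker without the ZT4 libraries).

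Among the gains and losses with the smallest p of the difference, many lay outside these lists. The 8 gains with the smallest p of the difference included Coq7, an enzyme of coenzyme Q synthesis, with an amplitude of 0.48 ± 0.05 at ZT10.8, against 0.01 ± 0.05 in fed liver (difference 2.24e-04), and Rnd2, a small GTPase (0.79 ± 0.10 at ZT9.41, against 0.16 ± 0.10, difference 1.04e-04). Srsf3 (chr17:29032628-29043373, + strand), a splicing factor, had 5.29, 6.73 and 7.31 FPKM at ZT0, 9.71, 13.2 and 12.2 at ZT4, 12.12, 13.0 and 10.6 at ZT8, 9.07, 5.31 and 6.46 at ZT12, 5.36, 4.82 and 6.19 at ZT16, and 5.65, 4.62 and 4.99 at ZT20. Its ZT4 and ZT8 libraries all lay above the libraries of the other times, and the amplitude was 0.63 ± 0.08 at ZT6.29, against 0.18 ± 0.08 in fed liver (difference 1.96e-04). Losses included Ppard (chr17:28232700-28301474, + strand), a lipid-sensing nuclear receptor, with 1.45 to 2.62 FPKM in all 18 fasted libraries, against fed means of 16.0 ± 1.31, 2.12 ± 0.310, 1.77 ± 0.194, 2.37 ± 0.357, 3.95 ± 0.554 and 10.7 ± 1.47 FPKM (amplitude 0.18 ± 0.12 against 1.41 ± 0.12, difference 8.05e-05). Esr1, the estrogen receptor α, had an amplitude of 0.23 ± 0.11 against 0.86 ± 0.11 (difference 8.05e-05), Grk5, a receptor kinase, 0.15 ± 0.10 against 1.10 ± 0.10 (difference 1.06e-04), and Rbm25, a splicing regulator, 0.04 ± 0.09 against 0.88 ± 0.09 (difference 9.93e-05). Nme2, a nucleoside diphosphate kinase, was among the 5 largest shifts of genes rhythmic in both states, with peaks at ZT10.9 in fasted and ZT22.8 in fed liver (difference 9.01e-04).

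Departures from a cosine were harder to call. A time effect of any shape over the 6 times passed for 4150 genes (38.7%), of which 1315 had no cosine call, but for 1857 genes in a fit of the 18 fasted libraries alone. A 12-h component passed for 546 genes (5.09%, and 2493 at an unadjusted p under 0.05), for 0 in the fasted libraries alone (limma, 1880 of 10070 at an unadjusted p under 0.05) and for 0 without ZT0 replicate 1 (1887 at an unadjusted p under 0.05). It passed for 33 genes without the ZT4 libraries and 34 without the ZT12 libraries. The SD between libraries of 1 time, on the log2 scale, had a median over genes of 0.204 in fasted and 0.170 in fed liver.

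Exonic signal mostly followed intronic signal in fasted liver. Exonic signal was rhythmic for 3431 of 10386 genes (33%) and intronic signal for 807 of 8785 (9.19%), and 470 of the 8042 genes tested in both (5.84%) were rhythmic in both. These 470 were 17.0% of the 2761 exonic and 62.6% of the 751 intronic rhythms among the genes tested in both. The exonic and intronic tables come from the same libraries, the intronic one with 0.975 to 2.42 M reads and the exonic one with 21.6 to 28.8 M reads. The median delay of the exonic peak was 1.25 h (quartiles 0.157 and 2.99 h), with 370 delays above 0 and 100 below, and 192 more than 2 standard errors above 0 and 35 more than 2 standard errors below. The median of the delays without any 1 library ranged from 1.09 to 1.66 h. With a level filter of 5 FPKM it was 1.92 h. The exonic amplitude was the smaller one in 357 of the 470 genes, with medians of 0.38 for exonic and 0.49 for intronic signal. The difference between the exonic and the intronic rhythm passed for 771 genes (9.59%). Intronic rhythms were most frequent in the windows of ZT4 (279 of 807) and ZT16 (184), exonic rhythms in those of ZT4 (884) and ZT8 (750). Without the ZT4 libraries 208 intronic rhythms were called, and 143 genes were rhythmic in both tables.

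Of 18 core clock genes tested in both tables, 10 were rhythmic in introns, against 9.19% of all genes, and all 10 were also rhythmic in exons. Their exonic peaks all came after their intronic peaks, by a median of 1.13 h. The delay was 0.422 ± 0.36 h for Nr1d1, 1.16 ± 0.40 h for Dbp, 1.09 ± 0.26 h for Per3 and 0.728 ± 0.35 h for Arntl, but 6.14 ± 0.99 h for Per2. Per2 (chr1:91415982-91459324, - strand) had intronic values of 1.12, 4.68 and 2.59 FPKM at ZT0, 4.59, 8.70 and 7.92 at ZT4, 8.28, 5.23 and 5.47 at ZT8, 4.75, 4.12 and 4.10 at ZT12, 2.66, 2.30 and 2.75 at ZT16, and 1.99, 1.77 and 2.75 at ZT20. Its exonic values were 1.74, 2.01 and 1.74 FPKM at ZT0, 1.16, 1.76 and 2.52 at ZT4, 4.46, 4.07 and 5.72 at ZT8, 8.47, 6.67 and 2.01 at ZT12, 5.07, 5.05 and 6.04 at ZT16, and 3.24, 2.88 and 3.77 at ZT20. Intronic signal was highest in libraries of ZT4 and ZT8, exonic signal in 2 libraries of ZT12, with peaks at ZT7.22 and ZT13.4 and similar amplitudes (0.79 ± 0.15 and 0.76 ± 0.13). Cry1 had a delay of 0.336 ± 0.47 h, but its exonic amplitude was larger than its intronic one (1.27 ± 0.10 against 0.55 ± 0.08, adjusted p of the difference 6.58e-05).

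**Figure D5:**
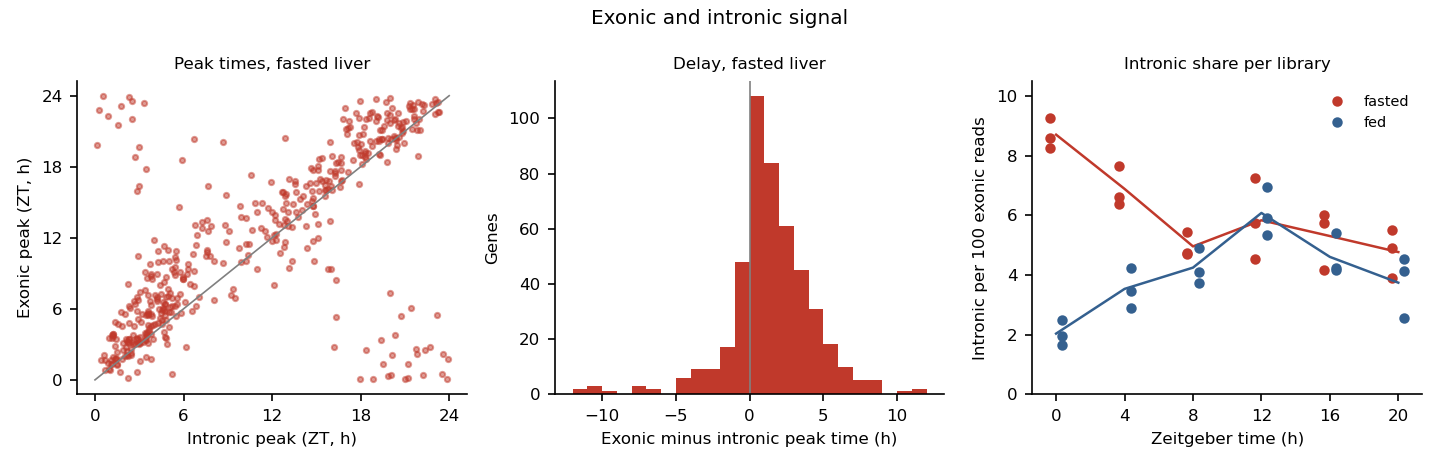
Left, fitted exonic against intronic peak time (ZT, h) of the 470 genes rhythmic in both tables in fasted liver. Middle, number of genes per exonic minus intronic delay (h), with 370 of 470 above 0. Right, intronic reads per 100 exonic reads in each library against zeitgeber time, with fasted libraries from 8.26 to 9.29 and fed libraries from 1.66 to 2.48 at ZT0.

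Fatty acid oxidation and ketogenesis held many genes with an intronic rhythm. Of its 45 genes tested in both tables, 21 were rhythmic in introns, against 9.19% of all genes, and 17 in exons, with 12 in both and 9 in introns alone, and the difference between exonic and intronic rhythm passed for 19. Of the 21 intronic peaks 11 fell in the window of ZT16 and 9 in that of ZT20. The fitted delays of the exonic peaks of the 12 genes rhythmic in both were all above 0, from 0.151 to 11.3 h with a median of 2.81 h. The longest of these delays lies near the antiphase, where its sign is arbitrary. Without the ZT4 libraries 10 of the 45 were rhythmic in introns, beside 208 of 8716 over all genes. Then 14 of 46 were rhythmic in the whole-gene table. Acaa1b (chr9:119148023-119157093, - strand), a peroxisomal thiolase, had intronic values of 252, 164 and 151 FPKM at ZT0, 33.0, 121 and 107 at ZT4, 118, 138 and 82.2 at ZT8, 194, 93.1 and 95.3 at ZT12, 737, 459.6 and 620.4 at ZT16, and 370.2, 481 and 543 at ZT20. Its exonic values were 632, 439 and 411 FPKM at ZT0, 422, 712 and 674 at ZT4, 794, 629 and 534 at ZT8, 612, 277 and 562 at ZT12, 538, 296 and 557 at ZT16, and 449, 501 and 558 at ZT20. The intronic libraries of ZT16 and ZT20 were all above those of the other times, whereas the exonic values of all times overlapped. The intronic amplitude was 1.45 ± 0.20 with a peak at ZT18.1, the exonic one 0.22 ± 0.11 (adjusted p = 0.263, difference 2.55e-08). Acaa1b has a close paralog, between which reads may have been split. Acot3 and Pdk4 had short delays of 1.18 ± 0.52 h and 0.151 ± 0.34 h, Pex11a and Acsl1 delays of 2.62 ± 0.58 h and 2.81 ± 0.98 h, and Ehhadh, a peroxisomal enzyme of β-oxidation named here after its values were seen, 5.81 ± 0.80 h with an intronic amplitude of 1.497 ± 0.18 and an exonic one of 0.61 ± 0.10.

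Of 28 cholesterol genes 20 were rhythmic in exons and 1 in introns (Insig2, with 3 called in introns without the ZT12 libraries). The list counts of this paragraph stand beside 33% of all genes in exons and 9.19% in introns. With so few members, the intronic counts are not far from that share. Msmo1 had an exonic amplitude of 1.04 ± 0.17 and an intronic one of 0.45 ± 0.20 (adjusted p = 0.278), and the difference passed (adjusted p = 0.00732, and 0.111 without the ZT4 libraries). No proteasome gene of 29 was rhythmic in introns by limma's test (3 at an unadjusted p under 0.05) and 14 were in exons, and of 26 endoplasmic reticulum chaperones 3 were rhythmic in introns and 15 in exons. Over all genes, 1738 exonic rhythms had an intronic unadjusted p over 0.05, but the difference between the tables passed for only 183 of these. Introns carried fewer reads than exons, and the part of this depth in the missing intronic calls was not tested.

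The longest delays included those of several metabolic enzymes. Cyp2a5 (chr7:26835305-26843548, + strand), a cytochrome P450, had intronic values of 2.72, 0.127 and 1.65 FPKM at ZT0, 11.8, 13.2 and 14.3 at ZT4, 11.7, 20.9 and 9.40 at ZT8, 8.81, 6.79 and 12.8 at ZT12, 4.56, 6.81 and 3.94 at ZT16, and 1.40, 0.831 and 1.84 at ZT20. Its exonic values were 149, 64.0 and 89.6 FPKM at ZT0, 89.2, 86.3 and 88.5 at ZT4, 77.1, 206 and 212 at ZT8, 515, 261 and 101 at ZT12, 351, 431 and 458 at ZT16, and 250.1, 284 and 324 at ZT20. Every intronic library of ZT4, ZT8 and ZT12 but 1 exceeded every library of the other times, and the exonic mean was highest at ZT16, with peaks at ZT8.84 and ZT15.6 and a delay of 6.76 ± 0.80 h (5.54 h without the ZT4 libraries). The delay was 7.81 ± 0.94 h for Galk1, galactokinase, with peaks at ZT3.97 in introns and ZT11.8 in exons, 7.50 ± 1.204 h for Ces1d, a carboxylesterase, and 6.62 ± 1.31 h for Blvrb. Cyp2a5 and Ces1d belong to families of similar genes, so reads may have been split between paralogs. The longest delay with amplitudes of 0.3 or more, 8.69 ± 1.32 h for Serinc2, was 10.6 h without the ZT12 libraries. Exonic peaks ahead of the intronic ones were fewer, for example in Atp11b, a phospholipid flippase, with -4.05 ± 1.11 h. The value for Cyp2c44, -10.4 ± 1.71 h, changed to 9.29 h without the ZT4 libraries and 10.9 h without the ZT12 libraries, since such a delay lies near the antiphase, where its sign is arbitrary. Hsd3b5, a steroid dehydrogenase with an exonic amplitude of 1.44 ± 0.18, had intronic values of at most 0.156 FPKM in all 18 fasted libraries, and its close paralogs may have shared reads with it.

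The daily course of the share of intronic reads differed between fasted and fed liver, and a cosine of its own passed in fed but not in fasted liver. Fasted libraries held 8.26 to 9.29 intronic reads per 100 exonic reads at ZT0, 6.38 to 7.67 at ZT4, 4.71 to 5.43 at ZT8, 4.53 to 7.24 at ZT12, 4.16 to 6.01 at ZT16 and 3.91 to 5.50 at ZT20. Fed libraries held 1.66 to 2.48 at ZT0, 2.90 to 4.23 at ZT4, 3.73 to 4.91 at ZT8, 5.36 to 6.97 at ZT12, 4.18 to 5.42 at ZT16 and 2.55 to 4.55 at ZT20. The fasted and fed ranges did not overlap at ZT0 and ZT4 and overlapped from ZT8 on. A cosine over the 18 fasted libraries had an amplitude of 1.30 with a fitted peak at ZT1.55 (permutation test of the sum of squares of the cosine, p = 0.0394, not passing at an adjusted p of 0.0788 over 4 such tests), against 1.62 at ZT12.4 over the fed libraries (p = 7.0e-05, adjusted p = 0.00028). The difference between the cosines had a size of 2.89 (permutation p = 9.0e-05, adjusted p = 0.00018 over 2 tests). Without the 3 ZT0 libraries the fasted amplitude was 0.561 (permutation p = 0.36), and without the ZT4 libraries 1.42 (permutation p = 0.0906). The intronic table is scaled to its own total. Estimated depth was larger for the whole-gene than for the exonic table, by unequal steps. The mean depths were 32.0 and 25.8 M reads at fasted ZT0, 30.2 and 25.3 at fasted ZT20, and 29.2 and 25.7 at fed ZT0. The part of the intronic share in the whole-gene rhythms and in the delays was not tested.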

How the data were processed

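RNA from liver of fasted and fed mice was sequenced with an unstranded TruSeq kit, per the labels' protocols. Build mm10 and CASAVA 1.8.2 were named per the submitters' processing notes, with the aligner and annotation not given in the sources used here. Deposited values for whole genes, exons and introns were read as FPKM from their size and length dependence, so a count test was not the main test. Depth was estimated from single-read steps, and limits the precision of intronic values most.

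Genes with at least 1 FPKM in 3 of the 36 liver libraries were tested as log2(FPKM + 0.5), a scale that understates changes of low genes. One limma 3.58.1 fit (R 4.3.3) gave each feeding state its own mean and 24-h cosine, and Benjamini-Hochberg adjustment of the F tests covered all 10780 genes before the 61 muscle genes were set aside. The exonic and intronic tables were fitted in the same way over all 36 liver libraries, with standard errors of delays by the delta method. Library shares were tested with 100000 permutations. The procedure was tested on simulated data. Named genes were core clock genes, the largest amplitudes per peak window, up to 4 smallest p and 1 uncalled member per list, and the clearest gains, losses, shifts and exon-intron differences, and a few genes under this rule are not reported here. Of the list members, those under the level filter or set aside were not tested. Members, lists and the counts of lists under alternatives were chosen with earlier results of these data known. Alternatives changed pseudocount, filter, scaling, block and libraries used. Promoters came from RefSeq (GRCm38.p6), and figures were drawn with matplotlib 3.10.9.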

Additional observations from a re-analysis of the deposited data

Results flagged for a closer look

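Fasted and fed rhythms differed for 3452 genes by limma's test of the difference itself, adjusted over all genes tested. Listed here are 29 of these, the ones named as core clock genes, gains, losses or largest shifts. The size of each difference, the length of the vector between both cosines in log2 units, is given here. In the core clock it was 1.67 for Ciart, 1.52 for Per1, 1.46 for Nr1d2, 1.21 for Dbp, 1.00 for Nr1d1, 0.87 for Arntl, 0.81 for Rora, 0.79 for Per3, 0.66 for Per2, 0.53 for Bhlhe41 and 0.52 for Tef. The difference of Bhlhe41 did not pass with a pseudocount of 0.1 (adjusted p = 0.0583), under quantile normalisation (0.0540) or with the length trend removed (0.0749). Among gained rhythms it was 0.94 for Rnd2, 0.78 for Slc35b1, a nucleotide sugar transporter family member, 0.74 for Sec61b, 0.73 for Srsf3, 0.72 for Cth, 0.50 for Tpi1, 0.49 for Pfdn1, a prefoldin subunit, and 0.48 for Coq7. Among lost rhythms it was 1.24 for Ppard, 1.15 for Nampt, 1.08 for Esr1, 0.95 for Grk5 and 0.85 for Rbm25.

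The longest shifts among genes called rhythmic in both states came with differences of 1.23 for Slco1a1, an organic anion transporter, 0.76 for Cks2, a cell cycle subunit, 0.52 for Dnajb5, a heat shock protein, 0.48 for Nme2 and 0.33 for Rnf20, a ubiquitin ligase of histones. Cks2 peaked at ZT9.69 in fasted and ZT21.7 in fed liver, and Slco1a1 at ZT22.9 in fasted and ZT10.9 in fed liver. Of these 5, all but Nme2 had a fasted rhythm that did not pass in some alternatives. Slco1a1 did not pass without the ZT12 libraries (adjusted p = 0.309) or ZT12 replicate 4 (0.0505). Dnajb5 did not pass without the ZT4 libraries (0.221) or ZT4 replicate 1 (0.0550) or under quantile normalisation (0.0769). Cks2 did not pass with the length trend removed (0.335), with no filter on low values (0.0721), without the ZT12 libraries (0.0971) or without any 1 of 8 fasted libraries (0.0507 to 0.114). Rnf20 passed narrowly (adjusted p = 0.0487) and did not pass without the ZT12 libraries (0.0782), with the length trend removed (0.0767), with no filter on low values (0.0601), with median-of-ratios scaling (0.0529), in the 18 fasted libraries alone (0.0718) or in most fits without 1 fasted library (0.0552 to 0.136).

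The share of intronic reads differed between fasted and fed liver in its daily course, with a difference of 2.89 intronic reads per 100 exonic reads between the cosines. Muscle RNA, which belongs to no comparison of liver, appeared in the 3 fasted ZT4 libraries with 126, 25.6 and 0.862 FPKM of Acta1. It also appeared in the fed libraries of ZT8 to ZT20, with 7.47 to 29.3 FPKM, against at most 0.179 FPKM at fed ZT0 and ZT4. With genes 20 or more times higher in muscle set aside, 4214 fed rhythms, 825 gains and 1294 losses were called. The part of these traces in the rhythms of other genes was not tested.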

How the results depend on the processing

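Alternatives changed the pseudocount, the level filter, the scaling, the harmonics and the libraries used, and calls follow limma with Benjamini-Hochberg adjustment. The count of 12-h components was 255 with no filter on low values, 0 in the 18 fasted libraries alone, 33 without the ZT4 libraries and 34 without the ZT12 libraries. With a filter of 5 FPKM 486 intronic rhythms, 281 genes rhythmic in both tables and 503 differences between the tables were called. With that filter the median delay was 1.92 h. The fasted libraries alone gave 1857 time effects. Without the ZT4 libraries 208 intronic rhythms, 143 genes rhythmic in both tables and 253 differences were called, and without the ZT12 libraries 1219 differences. The amplitude of the fasted intronic share was 0.561 without the ZT0 libraries (permutation p = 0.36) and 1.42 without the ZT4 libraries (permutation p = 0.0906). The delay of Cyp2c44 turned positive, 9.29 h without the ZT4 libraries and 10.9 h without the ZT12 libraries. The causes of these changes were not tested.

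What the replicate numbers stand for is not known. The correlation of deviations between same-numbered fasted libraries of different times ran from -0.395 to 0.357 over 26 pairs (median 0.0964). Between fasted and fed libraries of the same time and number it ran from -0.118 to 0.312 over 11 pairs (median 0.0148). So few and scattered correlations cannot tell whether same-numbered libraries share a batch. A fit with the replicate number as a block gave 2159 fasted rhythms, 457 gains, 2270 exonic rhythms, 420 intronic rhythms, 204 genes rhythmic in both tables and 420 differences between the tables. Under this block the differences of Nr1d1 (adjusted p = 0.0805) and Bhlhe41 (0.0749) and the fasted rhythms of Clock (0.108), Odc1 (0.0910), Pdk4 (0.0510), Cks2 (0.131) and Rnf20 (0.295) did not pass, while the fasted rhythm of Fgf21 (0.0292) and the difference of Hlf (0.0205) passed.

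Without any 1 library the counts ranged from 2771 (without fasted ZT0 replicate 1) to 4035 (without fasted ZT12 replicate 5) for fasted rhythms, 3492 to 4850 for fed rhythms, 2802 to 3858 for differences, 1188 to 1860 for shared, 604 to 1001 for gained and 941 to 1444 for lost rhythms. They ranged from 3042 to 5022 for time effects, 0 to 2136 for 12-h components, 2881 to 4111 for exonic rhythms, 532 (without fasted ZT4 replicate 4) to 1204 (without fasted ZT12 replicate 5) for intronic rhythms, 307 to 735 for both and 556 to 1276 for differences between the tables. The median delay ranged from 1.09 to 1.66 h, and the amplitude of the intronic share from 1.05 to 1.59 in fasted and from 1.45 to 1.72 in fed liver. Of the 3321 fasted calls, 2836 (85.4%) were also called under quantile normalisation, 2378 (71.6%) without the ZT4 libraries and 2930 (88.2%) without the ZT12 libraries.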
